A study of Rattus norvegicus with 12 samples.

Results

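The 8 genes that make the MHC class I molecule of the rat and load it with peptide were followed in whole lung: RT1-A1 and RT1-S3, B2m, Tap1, Tap2, Tapbp, Psmb8 and Psmb9. They were taken by their gene symbols from 9615 named genes, and all 8 of 8 were measured, each by 1 array feature. They were chosen with results of the diet comparisons already known, so their diet differences are given as a description, with no p-value of their own. Counts of members past a threshold stand beside the share of all features, and nothing is read from them. Lungs came from Sprague-Dawley pups at postnatal day 4, 10 or 21. Pups called IUGR had intrauterine growth restriction, which the study induced with a low protein diet; the others were controls. The design text counts 14 IUGR and 15 control pups, pooled by 2 or 3, which gave 2 arrays for each of 6 groups. The pups, litters and sexes behind a pool are not given, so p-values measure the spread between these pools only.

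MHC class I molecules show the T cells and natural killer cells of the body a sample of the peptides made inside a cell. A heavy chain pairs with the light chain B2m, a folded dimer waits beside the transporter Tap1/Tap2 under the hold of tapasin (Tapbp), and peptides cut by proteasomes are pumped in and bound. Interferons raise all of these parts, and exchange the standard catalytic proteasome subunits for Psmb8, Psmb9 and Psmb10, of which Psmb10 is not a member here. In the lung, endothelium, epithelium and leukocytes carry class I molecules.

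Tap2, Psmb8, Tap1 and Psmb9 stand in a row inside the MHC of the rat on chromosome 20, in the order of assembly GRCr8. RT1-A1, RT1-S3 and Tapbp lie on the same chromosome, and B2m on chromosome 3. Promoters are shown as background, because interferon acts on this group through its promoters. Any link between promoter letters and the differences given below was not tested. The RefSeq sequences (GRCr8) run from 250 bases before to 50 bases after the annotated start, and all 8 genes matched. Capitals mark the letters of an interferon-stimulated response element (ISRE; GAAA, any 2 bases, GAAA), TTCNNNGAA of a GAS element, and GGGNNTTCC or the 10-letter consensus of a kappa B site, on either strand.
RT1-A1, chr20:4906959-4907258, plus strand: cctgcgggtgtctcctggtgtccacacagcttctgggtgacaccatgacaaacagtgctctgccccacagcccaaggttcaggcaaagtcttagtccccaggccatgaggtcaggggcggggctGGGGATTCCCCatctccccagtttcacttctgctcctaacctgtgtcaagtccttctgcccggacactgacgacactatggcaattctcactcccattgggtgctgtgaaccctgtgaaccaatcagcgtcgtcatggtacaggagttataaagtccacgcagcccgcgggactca
RT1-S3, chr20:2675278-2675577, plus strand: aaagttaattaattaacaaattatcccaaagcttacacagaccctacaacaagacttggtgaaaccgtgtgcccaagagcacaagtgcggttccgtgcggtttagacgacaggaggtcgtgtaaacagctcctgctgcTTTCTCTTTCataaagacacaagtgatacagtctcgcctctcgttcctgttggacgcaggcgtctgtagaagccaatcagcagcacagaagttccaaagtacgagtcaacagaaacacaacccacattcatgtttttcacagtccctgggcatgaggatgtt
B2m, chr3:129549080-129549379, plus strand: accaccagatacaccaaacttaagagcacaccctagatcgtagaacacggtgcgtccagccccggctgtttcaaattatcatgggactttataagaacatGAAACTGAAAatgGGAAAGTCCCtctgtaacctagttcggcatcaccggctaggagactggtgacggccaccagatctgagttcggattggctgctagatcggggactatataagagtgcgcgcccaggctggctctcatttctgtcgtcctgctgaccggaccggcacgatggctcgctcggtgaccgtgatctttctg
Tap1, chr20:4668494-4668793, minus strand: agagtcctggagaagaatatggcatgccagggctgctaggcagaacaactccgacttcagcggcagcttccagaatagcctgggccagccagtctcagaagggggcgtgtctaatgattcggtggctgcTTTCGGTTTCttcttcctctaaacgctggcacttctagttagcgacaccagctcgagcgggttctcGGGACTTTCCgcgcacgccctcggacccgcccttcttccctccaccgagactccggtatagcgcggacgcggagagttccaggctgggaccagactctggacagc
Psmb9, chr20:4668750-4669049, plus strand: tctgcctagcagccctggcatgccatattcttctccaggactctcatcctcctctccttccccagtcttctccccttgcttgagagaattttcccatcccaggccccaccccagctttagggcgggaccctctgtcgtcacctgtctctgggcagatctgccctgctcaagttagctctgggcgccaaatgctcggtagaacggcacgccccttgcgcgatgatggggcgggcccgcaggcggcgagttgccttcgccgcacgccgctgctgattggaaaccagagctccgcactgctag

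An ISRE match was present in the promoters of 6 of the 8 genes (B2m, RT1-S3, Tap1, Tap2, Tapbp and Psmb8), against 3.92% of 33469 rat promoters of this length. RT1-A1 and Psmb9 held no match to these exact letters in this window. By eye, the RT1-A1 window holds tttcacttc after its kappa B letters, a letter short of the pattern on the other strand. The Tap1 match lies between the starts of Tap1 and Psmb9, but outside the Psmb9 window. Absence of the element from either gene is therefore not shown. Looser forms of the element were not searched, so an element with other letters would be missed here and in the other class I promoters below. In Tap2 the match was GAAAGCGAAA at positions -41 to -32, where 0 is the annotated start, and in Psmb8 it was TTTCGCTTTC at -4 to 5. Tapbp held a pair of overlapping matches, GAAAATGAAA at -26 and GAAAGTGAAA at -20. The kappa B consensus, searched after the shorter form had been seen, was found in 4 of the 8 (B2m, RT1-A1, Tap1 and Tapbp), against 7.51% of promoters. The shorter GGGNNTTCC was found in RT1-A1 alone of the 8, at -126 to -118, where it overlaps the consensus, against 5.92%. Of 24 promoters of other class I genes in the table, 10 held the consensus, 9 the shorter form and 2 the ISRE letters. GAS letters were found in Psmb8 (8.87% of promoters) and the X2 letters TGACGC in none of the 8 (6.73%). Tap1 and Psmb9 start on opposite strands next to each other, and their windows share 44 bases. These matches are letters in a window and were not measured as binding sites.

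The heavy chains stood apart at day 4. RT1-A1, a classical heavy chain, had a log2 intensity of 8.87 and 8.50 on the IUGR arrays and 10.29 and 9.68 on the control arrays. Both IUGR pools lay below both control pools, and the gap between the groups was larger than the spread within either. The difference, IUGR minus control, was -1.30 ± 0.19 (SE, n = 2 and 2), a fold of 2.46. RT1-S3, a nonclassical heavy chain that RefSeq lists under the synonym H2-T23, was 9.69 and 9.50 in IUGR and 10.26 and 10.24 in controls. Its mouse counterpart shows signal peptides of other class I molecules to receptors of natural killer cells. Its difference was -0.66 ± 0.09, a fold of 1.58, and again the groups did not overlap.

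**Figure D1:**
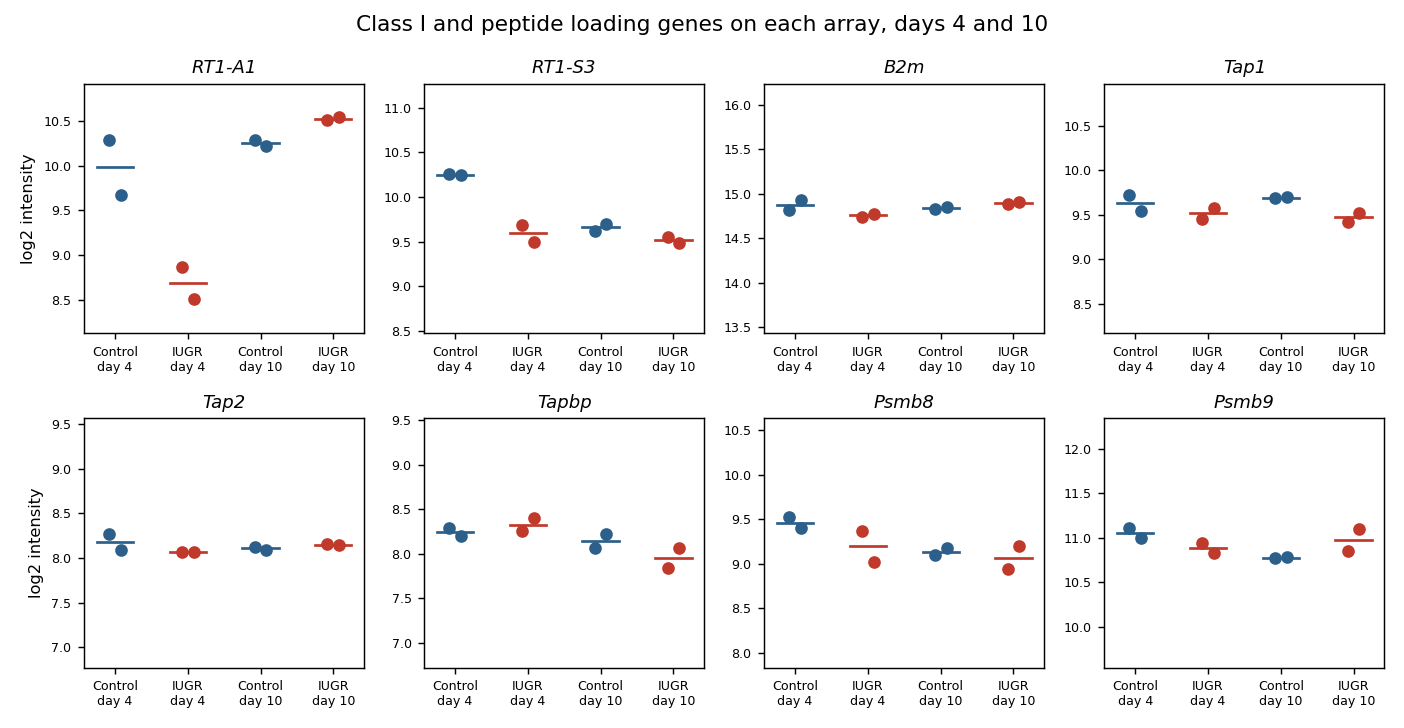
Log2 intensity of each of the 8 genes on the 8 arrays of days 4 and 10. Points are arrays (pools of pups), short lines are group means, blue is control, red is IUGR, and each vertical axis spans the same width. RT1-A1 at 8.87 and 8.50 on the day 4 IUGR arrays is the widest departure, while B2m stays between 14.74 and 14.93 on all 8 arrays.

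The light chain and the loading genes differed far less at day 4. B2m was 14.74 and 14.77 in IUGR and 14.82 and 14.93 in controls, a difference of -0.12 ± 0.08, which was -0.06 without control day 4 replicate 2. Psmb8, a catalytic subunit of the immunoproteasome, was 9.37 and 9.02 against 9.52 and 9.40, a difference of -0.27 ± 0.14. Its value moved from -0.44 without IUGR day 4 replicate 1 to -0.09 without replicate 2. Psmb9, another such subunit, was 10.94 and 10.83 against 11.11 and 11.00, a difference of -0.17 ± 0.11. The transporter genes gave -0.12 ± 0.10 for Tap1, whose arrays overlapped and which was at -0.03 without control day 4 replicate 1, and -0.11 ± 0.09 for Tap2, which was 8.07 and 8.07 in IUGR and 8.27 and 8.09 in controls. The Tap2 difference rested on 1 control array, since it was -0.02 without that same array. Tapbp, the chaperone that bridges class I and the transporter, was 8.25 and 8.40 against 8.28 and 8.20, a difference of 0.08 ± 0.11, which ran from 0.01 to 0.16 with 1 array left out. Tap2 and Tapbp, with intensities of 229 to 337, lay nearer to the lowest intensity of the arrays (113 to 122) than the other members did.

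Over the 8 genes at day 4, 7 were lower and 1 higher in IUGR, with a median of -0.15, beside a median of 0.0033 over all 26208 features, of which 49.1% were lower. Both IUGR arrays lay below both controls for 6 of the 8, against 19.1% of all features, and above them for none. With limma's adjusted p threshold of 0.05, 0 of the 8 were called and 0% of all features; at an unadjusted p under 0.05, 2 of the 8 were past and 9.59% of all features. With 1 array left out, RT1-A1 ran from -1.60 to -0.99 and RT1-S3 from -0.75 to -0.56. The count of members called changed without IUGR day 4 replicate 1. That fit has 1 IUGR array at day 4 and uses the values behind the choice of members, so nothing is read from its calls.

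Genes of other tissues differed between the arrays of day 4. The summed intensity of 4 heart muscle markers (of 5 listed) was 19313 and 55735 on IUGR replicates 1 and 2 and 27186 and 21833 in controls, and that of 3 brown fat markers (of 5) was 3021 and 18830 against 3317 and 3232. With IUGR day 4 replicate 2 left out, which was high for both lists, RT1-A1 was -1.12 and RT1-S3 -0.56. The 5 measured leukocyte markers (of 7) summed to 11188 and 10812 in IUGR and 12561 and 11622 in controls, and 6 T and NK cell markers (of 8) to 3870 and 4235 against 3625 and 3220. In 3 macrophage markers (of 6) the sums were 32367 and 31373 against 32661 and 32067, and in 3 endothelial markers (of 5) 14705 and 14166 against 14325 and 15140. Red cell markers (3 of 5) summed to 14936 and 8850 against 17493 and 15413. All 6 alveolar epithelial markers were measured, with a mean log2 intensity of 12.74 and 12.79 in IUGR and 12.64 and 12.64 in controls. All 6 were higher in IUGR at day 4, with a median of 0.10. At day 10 the means were 12.47 and 12.42 against 12.63 and 12.61, with 4 lower and 2 higher. The part of these cell types in the class I levels was not tested, and fewer cells of a type and less RNA per cell cannot be told apart in whole lung.

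Most of the wider class I family had a lower value in IUGR at day 4, though none passed the adjusted threshold. This family, whose genes lie in several blocks of the MHC, counts 27 other measured genes whose symbols begin with RT1- and are not class II. Of them 25 were lower and 2 higher in IUGR, with a median of -0.20. Both IUGR arrays lay below both controls for 17 of the 27 and above them for 0, against 19.1% and 18.3% of all features. At an unadjusted p under 0.05, 9 were lower and 0 higher (5.47% and 4.12% of all features), and 0 passed limma's adjusted threshold. The family's median stayed between -0.31 and -0.16 under every alternative run for day 4. Class I genes are close copies of each other and differ between MHC haplotypes, Sprague-Dawley is an outbred stock, and probe sequences were not used here. A value is therefore uncertain between close copies and alleles, and these features may not be independent of each other.

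RT1-T24-4 was lowest of the 27, at 11.59 and 11.59 in IUGR and 12.45 and 12.16 in controls, a difference of -0.72 ± 0.12. RT1-CE15 was 11.19 and 10.97 against 11.88 and 11.68, a difference of -0.70 ± 0.12. In both, the IUGR pools lay below the controls by more than the spread within a group. The highest were RT1-M2 (0.16 ± 0.14) and RT1-M6-2 (0.06 ± 0.11), whose arrays overlapped and whose levels, at 7.27 to 7.89, were close to the lowest of the arrays. The same limit held for RT1-CE2, RT1-M1-2, RT1-M1-4, RT1-M5 and RT1-T18, which were among the lower genes and lay at 7.24 to 7.85. RT1-A2 and RT1-A3, which stand beside RT1-A1 on the chromosome, were -0.16 ± 0.10 and -0.20 ± 0.13, far from the -1.30 of RT1-A1.

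**Figure D2:**
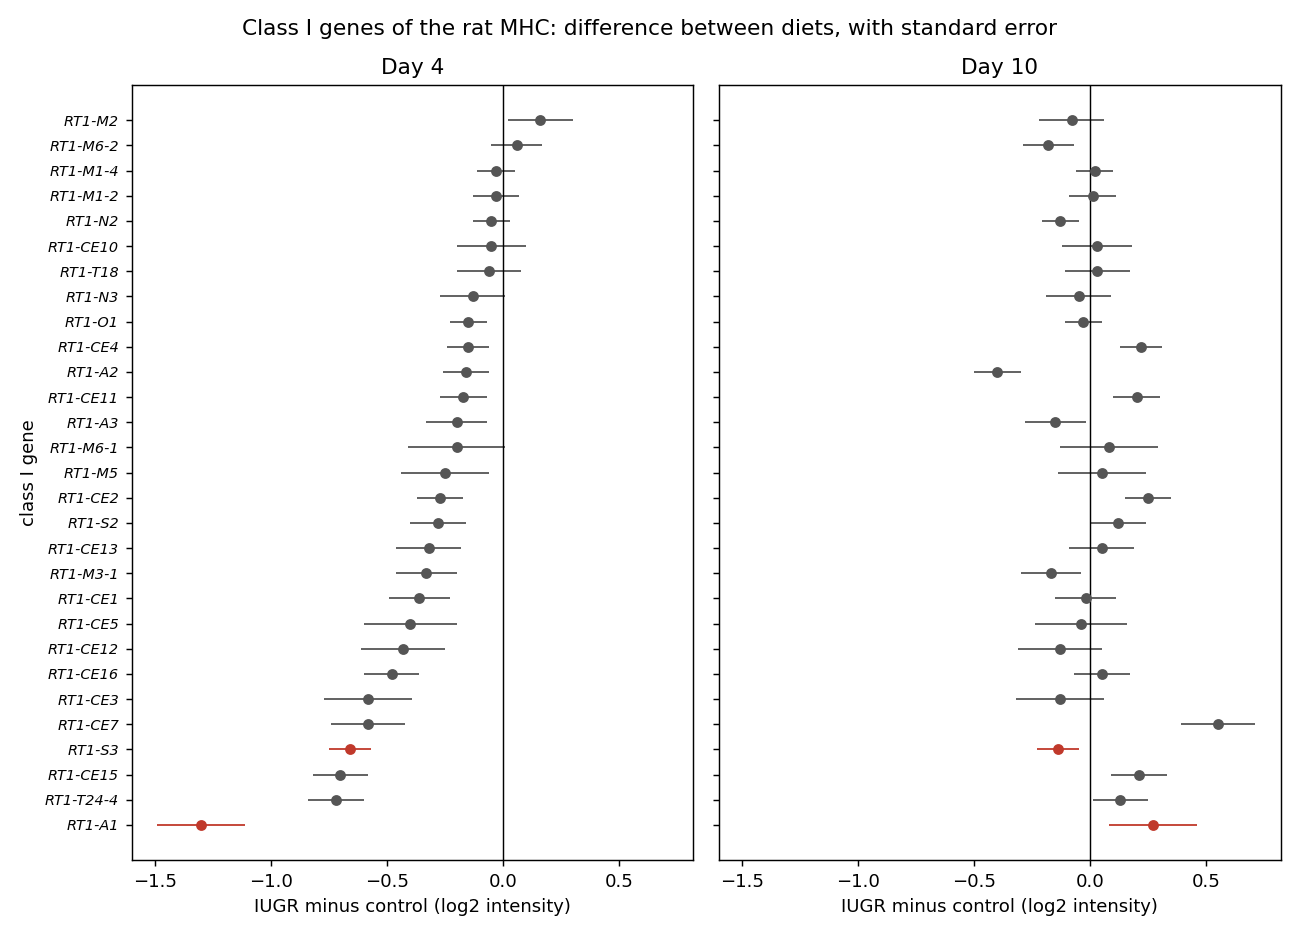
Difference between diets (IUGR minus control, log2 intensity, horizontal axis) of RT1-A1, RT1-S3 and the 27 other class I genes at day 4 (left) and day 10 (right), in the order of day 4. Points are limma estimates from 2 IUGR and 2 control arrays, bars are standard errors, and red marks RT1-A1 and RT1-S3. At day 4 the points run from -1.30 to 0.16 with all but RT1-M2 and RT1-M6-2 below 0, and at day 10 from -0.40 to 0.55 on both sides of 0.

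Other genes of the pathway, taken from lists, showed different patterns at day 4. Of 7 measured genes for folding in the endoplasmic reticulum (of 12 listed), all 7 were lower, with a median of -0.19, and both IUGR arrays lay below both controls for all 7, against 19.1% of all features. Among them Pdia4, a disulphide isomerase, was -0.25 ± 0.09, the chaperone Hspa5 -0.21 ± 0.08, Hsp90b1 -0.05 ± 0.08 and calnexin (Canx) -0.04 ± 0.08. Of 16 proteasome and activator genes (of 19), 5 were lower and 11 higher, with a median of 0.04. The structural subunit Psmb3 was 0.26 ± 0.09 and the interferon-inducible activator Psme2 was 0.16 ± 0.09, while Psme3 was -0.04 ± 0.09 and Psma1 -0.02 ± 0.09. Psmb10 was 0.11 ± 0.09, with both IUGR arrays above both controls (18.3% of all features), unlike Psmb8 and Psmb9. Of 18 interferon-induced genes (of 22), 14 were lower, with a median of -0.23, and 11 of the 18 had both IUGR arrays below both controls, against the same 19.1%. The antiviral genes Rsad2 and Mx2 were lowest at -0.82 ± 0.18 and -0.79 ± 0.16, and the chemokine Cxcl10 was highest at 0.45 ± 0.12. None of these genes passed limma's adjusted threshold, and at an unadjusted p under 0.05 the folding list held 3 of 7, the proteasome list 1 of 16 and the interferon-induced list 11 of 18, against 9.59% of all features.

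Among 15 measured regulators of class I (of 18), 10 were lower and 5 higher, with a median of -0.13. The interferon regulatory factor Irf2 was -0.76 ± 0.32, a value set by 1 array, with 10.90 and 12.11 in IUGR against 12.35 and 12.18 in controls. Ciita, the class II coactivator, was -0.33 ± 0.14, Irf3 was 0.14 ± 0.10 and Irf8 0.12 ± 0.15. Of 6 genes for interferons, tumour necrosis factor, their receptors and a kinase (of 12), 3 were lower and 3 higher, from -0.29 ± 0.12 for Ifnb1 to 0.25 ± 0.21 for Tnf. Class I-like molecules (7 of 9) were split 4 lower and 3 higher, with Cd1d1, which presents lipids, at -0.36 ± 0.12 and Hfe, which regulates iron uptake, at 0.36 ± 0.12. Of 12 genes for the recognition of class I (of 15), 8 were lower, with Cd8a, a coreceptor that binds class I, at -0.15 ± 0.09 and the killer receptor gene Klrc2 at 0.24 ± 0.19. In these 4 lists 4 of 15, 1 of 6, 4 of 7 and 0 of 12 genes were past an unadjusted p of 0.05, against 9.59% of all features, and 0 passed limma's adjusted threshold.

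At day 10 the differences of the heavy chains were smaller, and that of RT1-A1 had the other sign. RT1-A1 was 10.52 and 10.54 in IUGR and 10.29 and 10.23 in controls, now with both IUGR arrays above both controls and a difference of 0.27 ± 0.19. RT1-S3 was 9.55 and 9.49 against 9.62 and 9.70, a difference of -0.14 ± 0.09. As at day 4, both of its IUGR arrays lay below both controls. Tap1 was 9.42 and 9.52 in IUGR and 9.68 and 9.70 in controls, a difference of -0.22 ± 0.10, with the arrays apart. Tapbp was 7.84 and 8.06 against 8.07 and 8.22, a difference of -0.20 ± 0.11, which was -0.31 without IUGR day 10 replicate 2, -0.09 without IUGR replicate 1 of that day and -0.12 without its control replicate 2. Psmb9 was 10.85 and 11.10 against 10.77 and 10.78, a difference of 0.20 ± 0.11, which was 0.32 without IUGR day 10 replicate 1 and 0.07 without replicate 2, the array of day 10 with the highest heart (29288) and brown fat (28403) sums. The other heart and brown fat sums of day 10 were 10112 and 7154 in IUGR and 4924 to 5221 and 1403 to 2467 in controls, while leukocyte markers summed to 8971 and 9135 in IUGR and 10091 and 11094 in controls, and endothelial markers to 14102 and 12846 against 16031 and 15950. The part of these in the day 10 values was not tested. Psmb8 was -0.07 ± 0.14, B2m 0.06 ± 0.08 and Tap2 0.04 ± 0.09.

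Of the 8 genes at day 10, 4 were lower and 4 higher, with a median of -0.01 beside -0.0084 over all features. Both IUGR arrays lay below both controls for 3 (23.6% of all features) and above them for 4 (19.9%). With limma 0 of 8 passed the adjusted threshold (0% of all features) and 1 was lower at an unadjusted p under 0.05 (7.99% of all features, 4.11% lower and 3.88% higher). Of the 27 other class I genes, 12 were lower and 15 higher with a median of 0.02, from RT1-A2 at -0.40 ± 0.10 to RT1-CE7 at 0.55 ± 0.16. RT1-A2 was 11.00 and 11.25 in IUGR and 11.54 and 11.50 in controls, so the neighbour of RT1-A1 was the lower one at this day. RT1-CE7 was 11.07 and 11.21 against 10.59 and 10.60.

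The endoplasmic reticulum genes at day 10 were 1 lower and 6 higher, with a median of 0.07 and Hspa5 at 0.19 ± 0.08. The proteasome genes were 5 lower and 11 higher (median 0.01) and the interferon-induced genes 9 lower and 9 higher (median 0.0045). Regulators were 11 lower and 4 higher (median -0.04), among which Rfxank, a subunit of the factor that binds MHC promoters, was lowest at -0.56 ± 0.10. Recognition genes were 10 lower and 2 higher (median -0.10), with the adaptor Tyrobp at -0.41 ± 0.10. No gene of these 5 lists passed limma's adjusted threshold, and 1 of 7, 0 of 16, 1 of 18, 1 of 15 and 1 of 12 were past an unadjusted p of 0.05, against 7.99% of all features.

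The change with age was tested within each diet, in the same limma fit. The day 4 arrays in it are those with which the members were chosen, so these tests are not independent of that choice. In IUGR pups RT1-A1 rose by 1.85 ± 0.19 from day 4 to day 10, a fold of 3.60, with an adjusted p of 0.00336 (limma, n = 2 and 2). It passed under every alternative run, with an adjusted p of 0.00113 to 0.0322. In controls its change was 0.28 ± 0.19, with an adjusted p of 0.479 (limma), and the arrays of both days overlapped; without control day 4 replicate 2, at 9.68, it was -0.03. The difference between these changes, 1.57 ± 0.28, equals the day 10 diet effect minus the day 4 diet effect and is given as a description. In that comparison 3 of the 8 had an unadjusted p under 0.05, all higher, against 7.38% of all features (3.84% higher and 3.53% lower), and 0 passed the adjusted threshold. Both IUGR arrays lay below both controls at day 4 and above them at day 10 for 4 of the 8 (RT1-A1, B2m, Tap2 and Psmb9) against 3.12% of all features, and the opposite held for 0 of the 8 against 3.55%.

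RT1-S3 went the other way, and in the other diet. In controls it fell by 0.59 ± 0.09, with an adjusted p of 0.0205 (limma), from 10.26 and 10.24 to 9.62 and 9.70. In IUGR pups, already at 9.69 and 9.50 on day 4, its change was -0.08 ± 0.09 with an adjusted p of 0.634 (limma). The difference between its changes, 0.52 ± 0.13, had the same sign as that of RT1-A1 and is likewise a description. The control fall lost its call when any of the 4 control arrays was left out, with adjusted p-values of 0.0964 (without control day 4 replicate 2) to 0.159 (without control day 10 replicate 1), at sizes of -0.63 to -0.55. In both diets 1 of 8 members passed, against 4.28% of all features in controls and 13.0% in IUGR pups. At an unadjusted p under 0.05 there were 3 in controls and 2 in IUGR pups, against 21.1% and 29.8%. Both day 10 arrays lay below both day 4 arrays for RT1-S3, Psmb8 and Psmb9 in controls (30.9% of all features) and for Tapbp in IUGR pups (30.4%). They lay above for none of the 8 in controls (27.0%) and for RT1-A1, B2m and Tap2 in IUGR pups (23.9%).

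**Figure D3:**
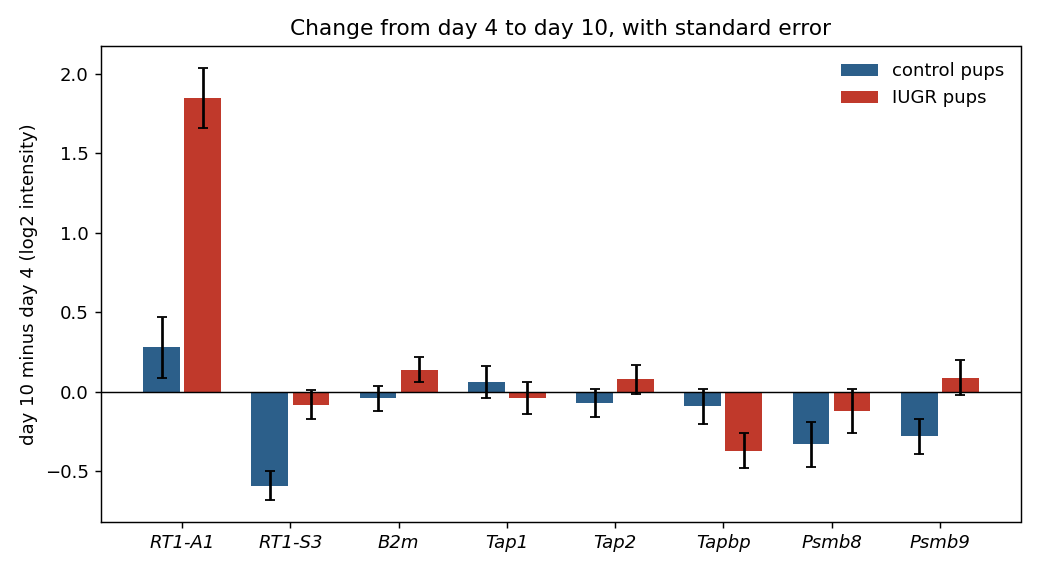
Change from day 4 to day 10 (log2 intensity, vertical axis) of the 8 genes in control pups (blue) and IUGR pups (red). Bars are limma estimates from 2 arrays a day and whiskers are standard errors. RT1-A1 rose by 1.85 in IUGR pups and RT1-S3 fell by 0.59 in controls, and the other bars lie between -0.37 and 0.28.

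None of the other 6 members passed in either diet. Tapbp came nearest, at -0.37 ± 0.11 in IUGR pups with an adjusted p of 0.0622, against -0.09 ± 0.11 in controls. Psmb8 was -0.33 ± 0.14 in controls (adjusted p = 0.229) and -0.12 ± 0.14 in IUGR pups, and Psmb9 was -0.28 ± 0.11 (adjusted p = 0.180) and 0.09 ± 0.11, all from limma. B2m changed by -0.04 ± 0.08 in controls and 0.14 ± 0.08 in IUGR pups, Tap1 by 0.06 ± 0.10 and -0.04 ± 0.10, and Tap2 by -0.07 ± 0.09 and 0.08 ± 0.09.

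Of the 27 other class I genes, 10 rose and 0 fell past limma's threshold between the days in IUGR pups, against 6.83% and 6.16% of all features. In controls 1 rose and 0 fell, against 2.29% and 1.99%. RT1-CE7 rose most in IUGR pups, by 1.46 ± 0.16 (adjusted p = 0.00384, limma), from 9.96 and 9.39 to 11.07 and 11.21, while RT1-CE3 rose by 1.25 ± 0.19 (adjusted p = 0.00895). At the other end were RT1-A2 at -0.32 ± 0.10 and RT1-M6-2 at -0.24 ± 0.11, neither past the threshold. The gene called in controls was RT1-A3, which rose by 0.83 ± 0.13 (adjusted p = 0.0190, limma) from 9.61 and 9.65 to 10.45 and 10.48. It also rose in IUGR pups, by 0.89 ± 0.13 (adjusted p = 0.00749). The median of the 27 was 0.33 in IUGR pups and 0.10 in controls, beside -0.028 and -0.0124 over all features.

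Of 16 proteasome and activator genes, 5 fell past limma's threshold with age in IUGR pups and 0 in controls. At an unadjusted p under 0.05, 8 of the 16 were lower in each diet, against 11.0% of all features in controls and 16.1% in IUGR pups. In each diet 15 of the 16 had a lower value at day 10, with medians of -0.19 in controls and -0.24 in IUGR pups, while 52.9% and 55.2% of all features were lower. Psme1, the partner of Psme2 in the activator, fell by 0.58 ± 0.12 in IUGR pups (adjusted p = 0.0201) and was -0.46 ± 0.12 in controls (adjusted p = 0.0697). Psmb3 fell by 0.50 ± 0.09 in IUGR pups (adjusted p = 0.0131). Of the endoplasmic reticulum genes, Hspa5 rose in IUGR pups by 0.42 ± 0.08 (adjusted p = 0.0179) and 0 passed in controls. Of 18 interferon-induced genes, 5 fell past limma's threshold in controls and 2 in IUGR pups. A lower value at day 10 was seen for 16 of the 18 in controls (median -0.38) and 14 in IUGR pups (median -0.24). In controls Mx2 and Oas1a fell by 1.11 ± 0.16 and 1.05 ± 0.11 (adjusted p = 0.0176 and 0.00908, limma). The share of all features that fell past the threshold was 1.99% in controls and 6.16% in IUGR pups.

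The order of the group means differed from gene to gene over days 4 and 10. For RT1-A1 it ran from IUGR day 4 (8.68) over control day 4 (9.98) and control day 10 (10.26) to IUGR day 10 (10.53), and only the control groups overlapped among neighbours. For RT1-S3 control day 4 (10.25) stood alone above the others, and the remaining groups, at 9.52 to 9.66, overlapped from neighbour to neighbour. For Psmb8 control day 4 (9.46) again stood above the next group, while for Psmb9 control day 10 (10.78) stood below it. For Tap1 all neighbours overlapped.

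The genes whose profile was most like that of RT1-A1 over the 8 arrays, among 7013 named features with an SD of at least 0.1, were RT1-CE15 (Pearson r = 0.986), Adh7, an alcohol dehydrogenase (0.974), and Cd48, a leukocyte surface protein (0.957). For the mean of all 8 members they were Oasl2 (0.955), Vps52 (0.942), Kcnk3 (0.938), Psmd10 (0.935), Unc5b (0.931) and Slc22a3 (0.915). Oasl2 is interferon-induced, Psmd10 helps to assemble the proteasome's regulatory particle, and Vps52 is the next gene beside RT1-A1 on the chromosome. For the 6 members other than the heavy chains they were Cfap410 (0.980), Serpinh1 (0.959) and Kifbp (0.957). These r values are likenesses picked from many features over arrays that share groups, and carry no test.

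Day 21 was read apart, because its arrays had been processed on another scale. RT1-A1 was 11.42 and 11.46 in IUGR and 11.11 on the single usable control array, a difference of 0.33 ± 0.22. RT1-S3 was 10.73 and 10.58 against 10.24, a difference of 0.41 ± 0.23, so both heavy chains were on the higher side in IUGR. Psmb9 was 11.93 and 12.11 against 11.63 (0.39 ± 0.24), Tap1 was 10.62 and 10.94 against 10.46 (0.32 ± 0.26), and Psmb8 was 10.49 and 10.22 against 10.10 (0.26 ± 0.25). B2m was 15.54 and 15.54 against 15.45, a difference of 0.09 ± 0.22. Tap2 and Tapbp overlapped with the control, at 7.91 and 7.63 against 7.70 and at 7.21 and 6.56 against 7.02.

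For 6 of the 8 both IUGR arrays lay above the control at day 21, against 32.1% of 10097 features, and for 0 below it, against 31.3%. Of the 8, 0 passed limma's adjusted threshold (0.00990% of features) or an unadjusted p of 0.05 (5.46%, 2.55% higher and 2.91% lower). Each SE joined the spread of the IUGR pair (1 residual degree of freedom) with a spread that limma drew from all these features (3.8 prior degrees). The single control is assumed to vary like the IUGR pair. The other control array had been filed as runs of single values, 3 per feature. Rebuilt from these runs, a step added after the data were seen, it correlated with control replicate 1 at 0.990 over 8700 features, with an SD of 0.451 between them. This agreement is partly built in. The runs were aligned to the mean of the usable day 21 arrays, and the scale was taken from control replicate 1. RT1-A1 was then 11.18 on the rebuilt array, still below both IUGR arrays, with a difference of 0.30 over all 4 arrays. RT1-S3 was 10.88 on it, above both IUGR arrays, which brought its difference to 0.09, and B2m, at 15.57, also lay above both IUGR arrays, while Tap1, at 10.75, fell between them. Of the 6 members that lay above the single control, RT1-A1, Psmb8 and Psmb9 also lay above the rebuilt one.

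**Figure D4:**
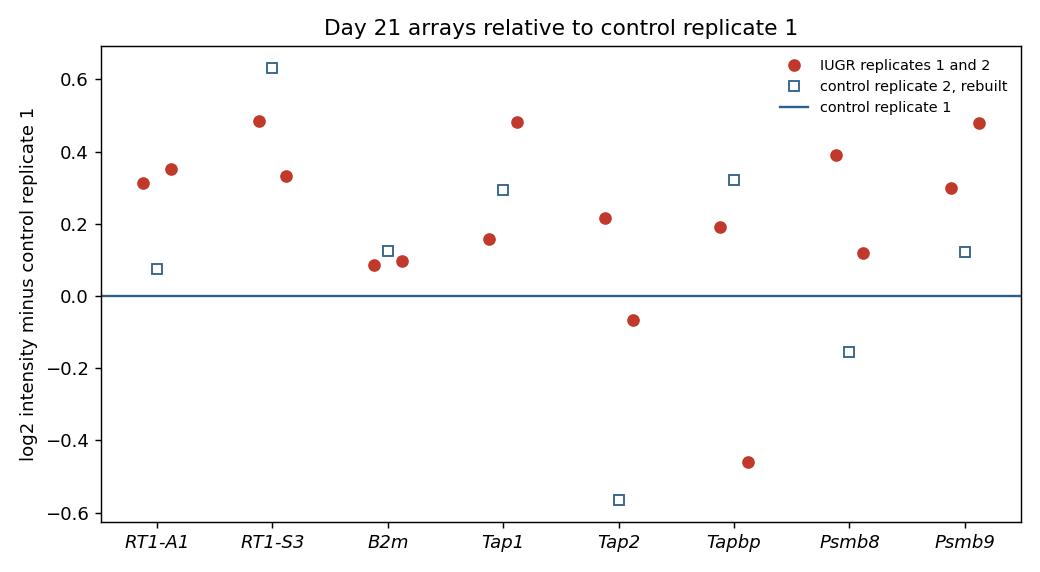
Log2 intensity of the 8 genes at day 21 relative to control replicate 1 (blue line at 0). Red points are the 2 IUGR arrays and open squares the rebuilt control replicate 2. For RT1-A1, Psmb8 and Psmb9 both IUGR arrays lie above both controls, while for RT1-S3 and B2m the rebuilt control, at 10.88 and 15.57, lies above them.

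The other class I genes had no common direction at day 21, with 13 lower and 14 higher and a median of 0.04. They ran from RT1-CE5 at -0.80 ± 0.32 to RT1-M2 at 1.01 ± 0.26. Proteasome and activator genes were 1 lower and 15 higher, with a median of 0.15 and Psme1 at 0.70 ± 0.24. Of the folding genes all 7 were higher, with a median of 0.04, though Hsp90b1 and Uggt1, at 0.0 and 0.01, barely differed. Both IUGR arrays lay above the control for 4 of the 7, against 32.1% of features. Pdia3, which joins tapasin in peptide loading, was at 1.33 ± 0.23, from 14.87 and 14.94 in IUGR against 13.57 on the single control. Interferon-induced genes were 10 lower and 8 higher, with a median of -0.08. None of these genes passed limma's adjusted threshold at day 21, and 1 of 27, 1 of 16, 1 of 7 and 0 of 18 were past an unadjusted p of 0.05, against 5.46% of features. On IUGR replicate 2 the heart markers summed to 47148, against 6070 on replicate 1 and 25570 in the control, whose brown fat sum was 25182 against 1452 and 2024 in IUGR; the part of this in the values above was not tested.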

How the data were processed

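Whole lung RNA of 12 pools was measured on 1-colour Cy3 arrays by NimbleGen. Linear intensity is the unit deposited by the authors, who used RMA, per the submitters' processing notes, with no version; probe design and background settings are not given in the sources used here. The 8 arrays of days 4 and 10 had medians of 411.2 to 418.4 and correlated with each other at 0.975 to 0.997. Day 21 arrays had medians of 270.1 to 278.5. Against the average over both earlier days, their NM features gave a correlation of 0.946 to 0.948 (0.921 or more around each member) and their XM features one of 0.016 to 0.017, so NM features alone were used. For control day 21 replicate 2 it was 0.0197, and that array was left out.

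Features were named by RefSeq accession through the GRCr8 table, 9724 of 26208 with 1 symbol; for genes with several, the brightest was used. Log2 intensity was fitted with limma 3.58.1 in R 4.3.3, with 1 mean per group over 8 arrays (4 residual degrees of freedom) and, for day 21, over 3 arrays (1 degree). P-values were adjusted by Benjamini-Hochberg over all features. The number of arrays limits the precision.

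Members and lists were chosen with earlier results of these data known. All 8 members are named. From each list the 2 highest and 2 lowest genes of a comparison are eligible, and likeness to the members was ranked by Pearson r. RT1-A2, RT1-A3 and Psmb10 at day 4 and RT1-A3 in IUGR pups were named after their values were seen. So were the lower class I genes of low level at day 4. Alternatives were other scalings, a filter on dim features, left-out arrays, the replicate number as a block, NM features alone, another variance model and, for day 21, the table as filed; rebuilding control day 21 replicate 2 and the kappa B consensus were added after the data were seen.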

Additional observations from a re-analysis of the deposited data

Results flagged for a closer look

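In this group 4 members changed sides between the days, with both IUGR arrays below both controls at day 4 and above them at day 10: RT1-A1, B2m, Tap2 and Psmb9. That pattern held for 3.12% of all features. For B2m and Tap2 it rests on small differences. At days 4 and 10 these were -0.12 ± 0.08 and 0.06 ± 0.08 for B2m, and -0.11 ± 0.09 and 0.04 ± 0.09 for Tap2. The Tap2 arrays of day 10 were 8.16 and 8.14 in IUGR and 8.13 and 8.09 in controls. The day 10 effect minus the day 4 effect was 1.57 ± 0.28 for RT1-A1, 0.37 ± 0.15 for Psmb9, 0.18 ± 0.11 for B2m and 0.15 ± 0.12 for Tap2. For RT1-S3, which was lower in IUGR at both days and so did not change sides, it was 0.52 ± 0.13. No p-value of a single member is given, because the choice of members used the diet effects, so these differences stand as descriptions. In limma's fit of this difference 0 of 26208 features passed the adjusted threshold (1933 at an unadjusted p under 0.05). Without control day 4 replicate 1 the Tap2 difference was 0.06. Without that array RT1-A1 was at 1.27, and without control day 4 replicate 2 at 1.88.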

How the results depend on the processing

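No called value of a member reversed. Of 656 values of single members under alternatives, 610 moved by less than the replicate SD or kept their side of the threshold, 42 moved by more, and 4 lost their call (RT1-S3 in controls, as given with the age changes). At day 4, the count of members called changed without IUGR day 4 replicate 1 alone, and nothing is read from the calls of that fit. Among all these values, 17 uncalled values took the other sign. The count of all features past limma's adjusted threshold was less stable. At day 4 it was 0, and 0 to 644 with 1 array left out (highest without IUGR day 4 replicate 1), 60 without IUGR replicate 2 of days 4 and 10, on which heart and brown fat genes were high, and 1 with a trended, robust variance. At day 10 it was 0, and 0 to 2 with 1 array left out. For the difference of both effects it was 0, then 0 to 152, and 11 without those IUGR arrays. For age in controls it was 1123, then 7 to 2264 (lowest without control day 4 replicate 1), 2997 without those IUGR arrays and 359 on NM features. The count of members called there was 1, and 0 to 1 with 1 array left out. For age in IUGR pups it was 3405, then 504 (without IUGR day 10 replicate 1) to 4259, and 1152 on NM features. At day 21 it was 1, then 0 after quantile normalisation, 0 after median centring, 0 with the table as filed and 3 with the rebuilt control; the members' median of 0.29 became 1.20 with the table as filed, in which control replicate 2 is out of register. The cause was not tested in the other cases, beyond fewer arrays or features.

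Same-numbered replicates of days 4 and 10 did not all deviate together (r of -0.226 to 0.187 between groups), and no label pairs them. With the replicate block the age counts were 729 in controls and 2574 in IUGR pups, and RT1-A1 in IUGR pups and RT1-S3 in controls still passed.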
